A study of Mus musculus with 6 samples.

Results

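The SOCS (suppressor of cytokine signalling) genes and the PIM kinase genes were followed in long-term haematopoietic stem cells (LT-HSCs), which sit in the bone marrow and renew the blood over a lifetime. The members were taken by symbol: Cish, Socs1, Socs2, Socs3, Socs4, Socs5, Socs6, Socs7, Pim1 and Pim2. All 10 were found among the 49997 genes of the count table, and all 10 were among the 21445 genes left by a filter on low counts. LT-HSCs of 4-month-old mice were sorted into Asrij low and Asrij high populations, Asrij being the protein encoded by Ociad1, and 3 bulk RNA-seq libraries were made from each population. Under genotype the labels give the strain, C57BL/6J, for both populations, with no other allele, treatment or agent. The count table's name carries the abbreviation ArjKI, which the labels do not explain, so whether the mice had an engineered Asrij allele is not given in the sources used here. They state neither how Asrij was read in the sort nor whether replicate libraries stem from different animals, and p-values therefore describe library-to-library spread that may be technical. Differences below are Asrij high over Asrij low.

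SOCS proteins are feedback inhibitors of cytokine signalling. A cytokine receptor activates JAK kinases, these phosphorylate STAT transcription factors, and the STATs switch on Cish and several Socs genes, whose products then dampen the receptor. Each SOCS protein carries an SH2 domain that binds phosphotyrosine and a SOCS box that recruits an elongin-cullin ubiquitin ligase. Pim1 and Pim2 encode serine/threonine kinases that need no activating phosphorylation, so that their activity follows the amount of protein, and their genes are classical targets of STAT5 and STAT3.

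Stretches around the start sites of 3 members are shown because textbook STAT and interferon regulatory elements have short recognisable cores. The sequences are those of RefSeq on GRCm38.p6, the assembly behind mm10, in windows from 250 bases before to 50 bases after the start. Of the 10 members, 6 had an entry (Cish, Socs1, Socs3, Socs4, Pim1 and Pim2). Capitals mark TTCNNNGAA, the palindromic core of STAT sites, in Cish and Socs3. In Socs1 they mark GAAANNGAAA, a core of interferon regulatory factor elements, searched on both strands together with its reverse complement TTTCNNTTTC. The Cish stretch is at chr9:107296539-107296678 (plus strand), the Socs3 stretch at chr11:117969437-117969556 (minus strand) and the Socs1 stretch at chr16:10785557-10785676 (minus strand).
Cish: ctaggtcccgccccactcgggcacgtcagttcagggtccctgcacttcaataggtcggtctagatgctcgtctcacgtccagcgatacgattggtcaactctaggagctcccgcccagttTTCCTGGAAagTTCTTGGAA
Socs3: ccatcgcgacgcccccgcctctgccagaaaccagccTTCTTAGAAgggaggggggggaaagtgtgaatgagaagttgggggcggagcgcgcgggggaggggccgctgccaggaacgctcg
Socs1: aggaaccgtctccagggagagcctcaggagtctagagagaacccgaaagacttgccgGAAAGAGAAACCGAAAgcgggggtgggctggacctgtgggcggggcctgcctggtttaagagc
Cish held 2 matches to TTCNNNGAA, which began 1 and 12 bases into the transcript by the RefSeq start. At least 2 matches were present in 0.457% of the 32851 windows, and at least 1 in 8.3%. Socs3 held 1 match, 154 bases upstream of the start used for its window. The annotated Socs3 gene extends to base 117970336 on its 5' side, so this match lies within the span of the gene. The windows of Socs1, Socs4, Pim1 and Pim2 held no match to TTCNNNGAA. Socs1 held 2 overlapping matches to the interferon element core, 83 and 77 bases upstream, and at least 1 match to it was present in 3.44% of windows. The windows of Cish, Socs3, Socs4, Pim1 and Pim2 held no match to that core. These matches are descriptions of sequence and no binding was measured.

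Across all genes the populations differed broadly. Totals ran from 24707012 to 46240743 counts in Asrij low and from 62732782 to 72855125 in Asrij high. Levels, given in CPM, are the counts divided by TMM-scaled library sizes, shown as mean ± SD with n = 3. Adjusted p-values come from the quasi-likelihood test of edgeR over all 21445 genes unless another test is named. Of these genes 39.4% passed the threshold of 0.05, 4655 higher and 3797 lower in Asrij high. The split was 3270 higher and 4856 lower when library totals alone set the scale, where the median over all genes moved from -0.02 to -0.29 on the log2 scale. Without Asrij high replicate 1 the count of changed genes fell from 8452 to 5481. Ociad1 was at 51.6 ± 5.72 CPM in Asrij low and rose to 80.3 ± 5.76 in Asrij high (log2 0.64 ± 0.16 SE, adjusted p = 0.0115). This call was lost (log2 0.53, adjusted p = 0.0831) when Asrij high replicate 1 was left out, and also under library totals or upper quartile factors. All 10 HSC markers examined, Procr, Slamf1 and Kit among them, were counted in every library, and all 10 were lower in Asrij high. Procr went from 34.3 ± 3.75 CPM in Asrij low to 4.06 ± 2.46 in Asrij high. Mpo, a granulocyte and monocyte marker, went from 84.3 ± 54.4 to 1504 ± 667 CPM. In its list of 11 markers 5 were higher and 1 lower.

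Of the 10 members, 7 were lower in Asrij high and 0 were higher, where 17.7% of all genes tested were lower and 21.7% were higher. The members that fell were Cish, Socs1, Socs2, Socs3, Socs5, Pim1 and Pim2, with log2 fold changes from -1.07 (Socs5) to -2.99 (Socs3). Socs4, Socs6 and Socs7 did not pass the test. The median log2 fold change of the 10 was -1.69, beside -0.02 over all genes tested, and it lay between -1.53 and -1.96 over 16 alternative analyses. For 7 members every Asrij high library was below every Asrij low library, a pattern seen in 24.8% of all genes tested, and for 1 member, Socs7, every Asrij high library was above, as in 30.2% of all genes tested. With single libraries left out, the number lower ran from 5 to 7.

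**Figure D1:**
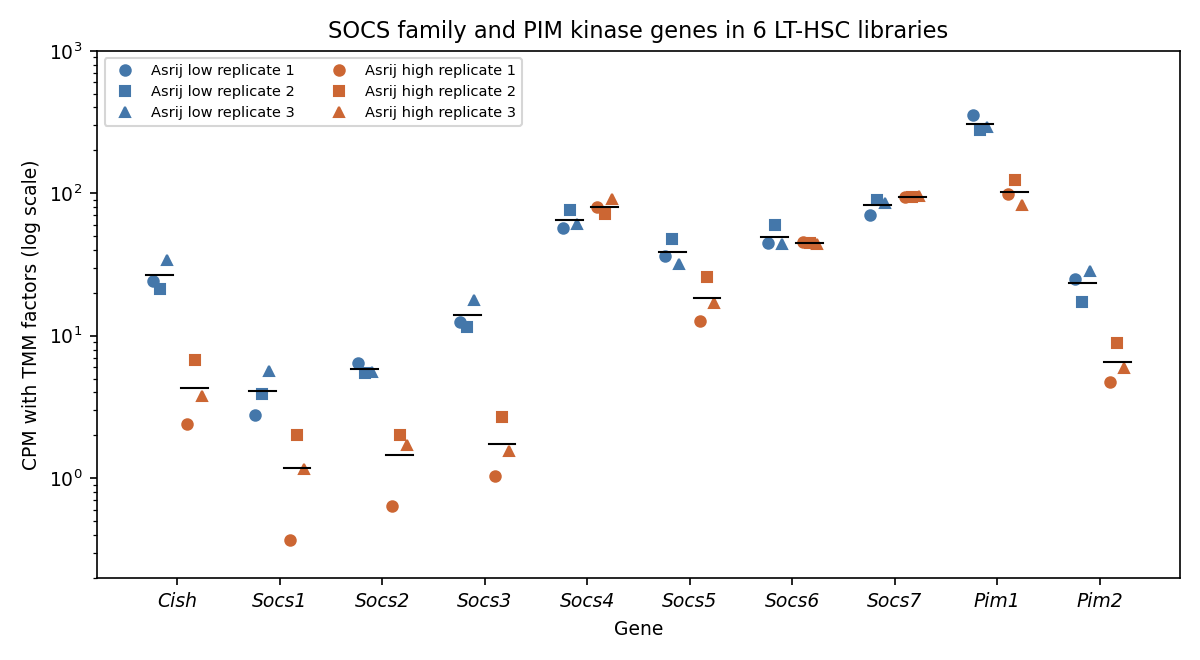
Levels of the 10 genes in each library, as CPM with TMM factors on a log axis. Points are libraries (blue Asrij low, orange Asrij high, marker shape the replicate number) and black bars are group means. For Cish, Socs1, Socs2, Socs3, Socs5, Pim1 and Pim2 all 3 orange points lie below all 3 blue points, and for Socs4 and Socs6 the groups overlap.

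Of the cytokine-induced inhibitors, Socs3, Cish and Socs2 had the largest falls of the 10 members, and Socs1 (log2 -1.79) fell slightly less than Pim2 (log2 -1.85). Cish encodes CIS, which binds activated receptors and blocks the docking of STAT5. It had 24.0, 21.3 and 34.2 CPM in Asrij low replicates 1 to 3 and 2.39, 6.75 and 3.81 CPM in Asrij high replicates 1 to 3. The highest Asrij high library thus stood below the lowest Asrij low library. The mean went from 26.5 ± 6.82 to 4.32 ± 2.23 CPM, 6.14-fold lower in Asrij high (log2 -2.62 ± 0.40 SE, adjusted p = 0.00128).

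Socs3 encodes an inhibitor of JAK kinases that acts on receptors built around gp130 and on the G-CSF receptor. Its Asrij low libraries held 12.6, 11.5 and 17.8 CPM and its Asrij high libraries 1.03, 2.67 and 1.55 CPM. It was 7.95-fold lower in Asrij high (log2 -2.99 ± 0.42 SE, adjusted p = 9.20e-04), and 3.78% of all genes tested had a log2 fold change at or below it. Cish and Socs3 moved together from library to library. The ratio of Cish to Socs3 counts, which needs no scaling between libraries, was 1.91, 1.86 and 1.92 in Asrij low and 2.32, 2.53 and 2.46 in Asrij high. The ratio was therefore nearly constant within each population and higher in Asrij high in all 3 libraries. With 3 against 3 libraries an exact permutation test cannot go below p = 0.1, so ratios are given without a test.

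Socs2, best known as the brake on growth hormone signalling, had 6.44, 5.47 and 5.56 CPM in Asrij low. In Asrij high it had 0.643, 2.01 and 1.71 CPM. The groups were well apart, with the lowest value in Asrij high replicate 1, where the gene held 35 counts. It was 3.99-fold lower (log2 -2.00 ± 0.49 SE, adjusted p = 0.0105). Socs1, the strongest inhibitor of interferon receptors in the family, was the least abundant member, at 2.78, 3.91 and 5.64 CPM in Asrij low, against 0.367, 2.03 and 1.15 in Asrij high. Its count in Asrij high replicate 1 was 20. The libraries did not overlap, but the gap between the groups was narrow, from 2.03 to 2.78 CPM. Socs1 passed the threshold by little (log2 -1.79 ± 0.64 SE, adjusted p = 0.0491). It was no longer called without Asrij low replicate 1, 2 or 3 (log2 -1.98, -1.79 and -1.52, adjusted p = 0.0665, 0.0804 and 0.12) and without Asrij high replicate 1 or 3 (-1.42 and -1.84, 0.11 and 0.113). Without Asrij high replicate 2 it was at -2.39 (adjusted p = 0.0249), with adjusted p between 0.00984 and 0.12 across the alternatives. The ratio of Socs3 to Socs1 counts was 4.53, 2.93 and 3.16 in Asrij low and 2.80, 1.32 and 1.34 in Asrij high.

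The remaining SOCS genes, Socs4 to Socs7, are expressed in many tissues and are less tied to cytokine induction. Socs4, whose product is known as a regulator of the EGF receptor, had 56.7, 76.4 and 60.4 CPM in Asrij low, against 80.2, 71.0 and 90.5 in Asrij high. These ranges overlapped and the difference did not pass the test (log2 0.32 ± 0.18 SE, adjusted p = 0.178). Socs5, the close relative of Socs4, was the member of this subgroup that fell. It had 36.1, 48.0 and 32.0 CPM in Asrij low, against 12.7, 25.7 and 16.9 in Asrij high, with no overlap (log2 -1.07 ± 0.29 SE, adjusted p = 0.0159). Without Asrij low replicate 2 the value was -0.85 and not past the threshold (adjusted p = 0.0597), with adjusted p between 7.67e-04 and 0.0597 across the alternatives. The related pair diverged within libraries: there were 1.57, 1.59 and 1.89 Socs4 counts per Socs5 count in Asrij low, and 6.32, 2.77 and 5.37 in Asrij high.

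Socs6, whose product binds the receptors Kit and Flt3, had 44.8, 60.2 and 43.8 CPM in Asrij low, against 45.2, 44.6 and 44.0 in Asrij high (log2 -0.15 ± 0.18 SE, adjusted p = 0.537). The Asrij high libraries lay within the Asrij low range. Its sign turned without Asrij low replicate 2 (log2 0.04). Socs7, best known from insulin signalling, had 70.6, 90.3 and 85.7 CPM in Asrij low, against 94.1, 94.5 and 95.0 in Asrij high. The groups did not overlap, yet the difference was small and did not pass the test (log2 0.20 ± 0.15 SE, adjusted p = 0.33). Its sign turned when library totals or upper quartile factors set the scale (log2 -0.06 and -0.07), so no direction is given for Socs7. Both genes were nearly constant across the Asrij high libraries, with SDs of 0.599 CPM for Socs6 and 0.469 CPM for Socs7.

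**Figure D2:**
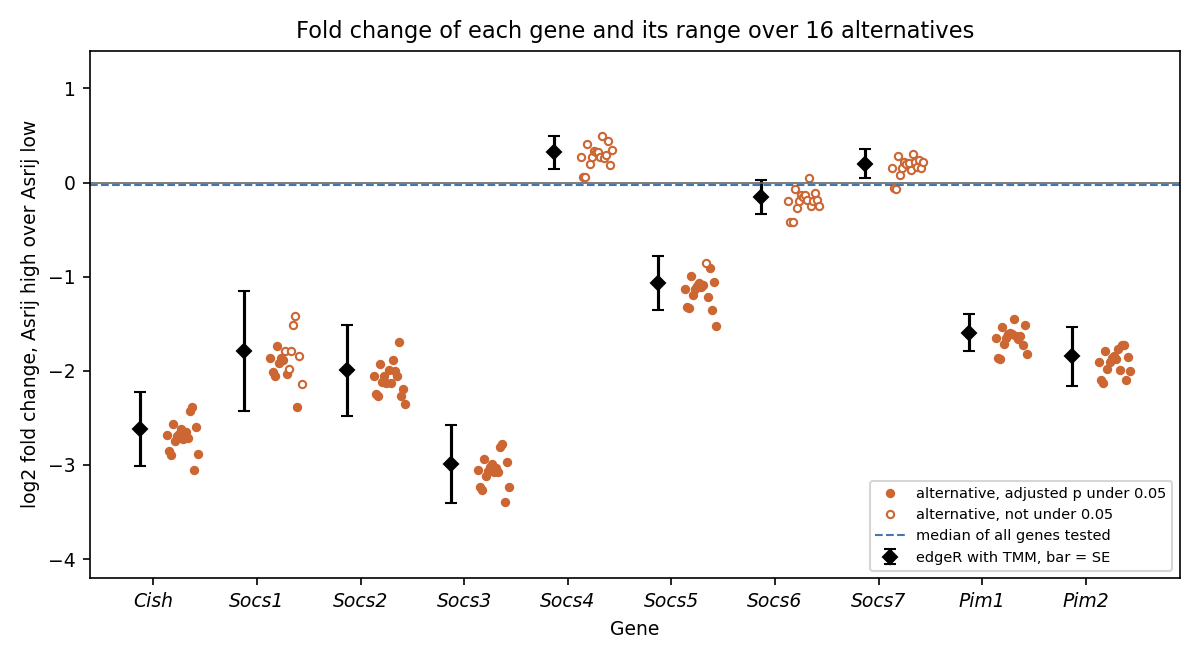
Log2 fold change of each gene, Asrij high over Asrij low. Black diamonds with SE bars are the edgeR values, orange points are the 16 alternatives (filled where the adjusted p was under 0.05) and the dashed line is the median of all genes tested at -0.02. Cish, Socs2, Socs3, Pim1 and Pim2 are filled throughout, Socs1 in 9 of 16 and Socs5 in 15 of 16 alternatives.

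Both PIM kinase genes were lower in Asrij high. Pim1, whose product promotes survival and growth by phosphorylating targets such as Bad, was the most abundant member. It had 352, 278 and 292 CPM in Asrij low, against 99.4, 123 and 82.1 in Asrij high, so that the lowest Asrij low library was more than double the highest Asrij high library. The mean fell from 307 ± 39.1 to 102 ± 20.7 CPM, 3.02-fold (log2 -1.60 ± 0.19 SE, adjusted p = 5.31e-04). The start of Pim1 overlaps an antisense gene, Gm26885, and the strand setting of the counting is not given in the sources used here. Gm26885 held 5.91% to 8.35% as many counts as Pim1 and was lower in Asrij high too (log2 -1.80, adjusted p = 0.00216), so reads of the pair may be shared.

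Pim2, an X-linked kinase gene with overlapping function, had 24.9, 17.1 and 28.4 CPM in Asrij low, against 4.76, 8.86 and 5.95 in Asrij high. The groups did not overlap, and Pim2 was 3.60-fold lower (log2 -1.85 ± 0.31 SE, adjusted p = 0.00209). The ratio of Pim1 to Pim2 counts overlapped between the populations, at 14.1, 16.2 and 10.3 in Asrij low and 20.9, 13.9 and 13.8 in Asrij high. Pim3, the paralogue outside the members, had 20.3, 26.9 and 21.4 CPM in Asrij low, against 15.8, 19.7 and 12.9 in Asrij high. It did not pass the test (log2 -0.50 ± 0.24 SE, adjusted p = 0.128), although it did under library totals (-0.76, adjusted p = 0.0411) and upper quartile factors (-0.77, adjusted p = 0.0267). The ratio of Pim1 to Pim3 was 17.3, 10.3 and 13.7 in Asrij low and 6.28, 6.25 and 6.36 in Asrij high. Pim1 counts per Pim3 count were thus lower in every Asrij high library and almost the same in all 3 of them.

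Per kilobase of exon (union of GENCODE M21 basic exons), levels ordered the members differently in the populations. In Asrij low, Pim1 led at 98.7 ± 12.6 CPM per kilobase, followed by Pim2 at 21.1 ± 5.18. Socs7 (11.7 ± 1.47), Socs4 (9.38 ± 1.52), Socs5 (8.33 ± 1.79), Socs6 (8.08 ± 1.49), Cish (7.27 ± 1.87) and Socs3 (5.46 ± 1.33) came next, and each of these overlapped its neighbour in the order. Socs2 (2.16 ± 0.199) and Socs1 (1.41 ± 0.495) were lowest. In Asrij high, Pim1 still led at 32.7 ± 6.66, and Socs7 (13.5 ± 0.0669), Socs4 (11.7 ± 1.42) and Socs6 (7.26 ± 0.0976) stood above Pim2 (5.86 ± 1.90) and Socs5 (3.96 ± 1.42) in mean. Socs6 and Pim2, and Pim2 and Socs5, overlapped. Cish (1.18 ± 0.611), Socs3 (0.685 ± 0.329), Socs2 (0.540 ± 0.267) and Socs1 (0.406 ± 0.285) were at the bottom with overlapping ranges. The range of Cish overlapped that of Socs6, the next gene above it, in Asrij low and lay apart from that of Socs5, the next above it, in Asrij high.

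The make-up of SOCS family counts shifted accordingly. Cish and Socs1 to Socs3 together took 18.0%, 13.3% and 22.2% of the counts of the 8 SOCS family genes in Asrij low and 1.87%, 5.40% and 3.23% in Asrij high. This share compares genes within a library and so does not depend on scaling. Cish alone took 9.47%, 6.72% and 12.0% in Asrij low and 1.01%, 2.71% and 1.50% in Asrij high. Socs7 took the largest share in all 6 libraries, from 27.8% to 30.1% in Asrij low and from 37.3% to 39.8% in Asrij high.

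**Figure D3:**
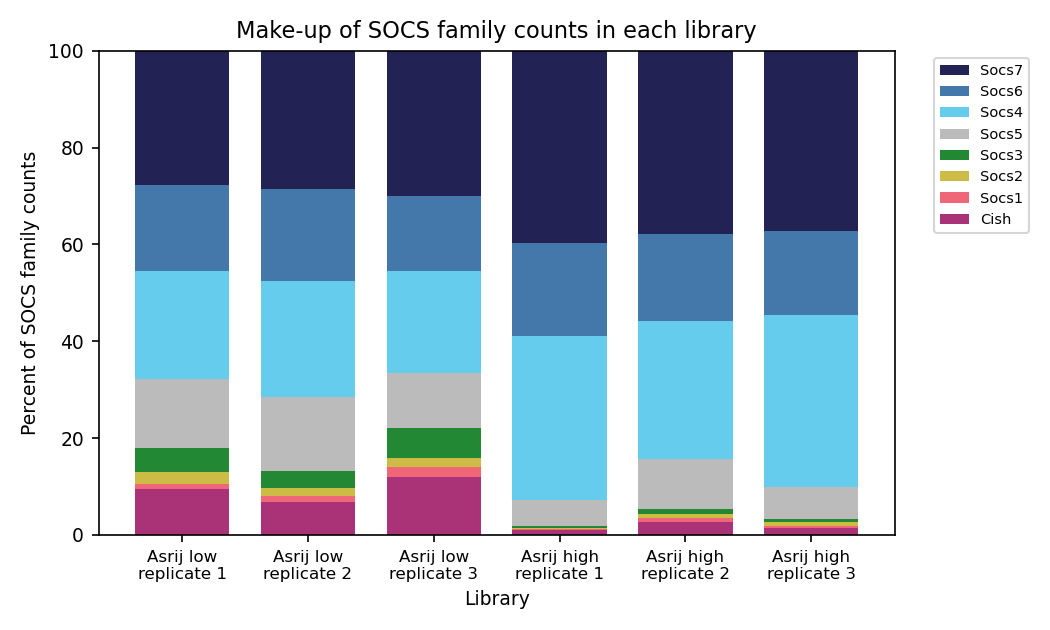
Share of each SOCS family gene in the counts of the 8 SOCS family genes, one stacked bar per library, in percent, not corrected for gene length. The lower 4 segments (Cish and Socs1 to Socs3) make up 13.3% to 22.2% in the Asrij low libraries and 1.87% to 5.40% in the Asrij high libraries.

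The falling members also varied together inside the Asrij high population. Asrij high replicate 2 had the highest value for 7 of the 7 members that fell, and replicate 1 the lowest for 6 of them, the exception being Pim1 with its lowest value in replicate 3. In Asrij low the order was mixed, with replicate 3 highest for 4, replicate 1 for 2 and replicate 2 for 1 of the 7. Replicate 2 was the lowest Asrij low library for 5 of the 7. The summed level of the 10 HSC markers shared the order of most of these members in Asrij high but not in Asrij low. The sum was 442, 757 and 457 CPM in Asrij high, highest in replicate 2 and lowest in replicate 1. In Asrij low it was 1536, 1652 and 1415 CPM, highest in replicate 2 and lowest in replicate 3. Kit was the largest part of the sum, at 729, 754 and 563 CPM in Asrij low and 373, 456 and 305 in Asrij high. The lowest place of Asrij low replicate 3 depended on Kit. Between the populations, 10 of 10 HSC markers were lower in Asrij high, with log2 fold changes from -0.85 (Kit) to -3.08 (Procr). In bulk libraries, fewer cells of a type and less RNA per cell cannot be told apart.

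Markers of other cell types moved with the populations as well. Summed stromal markers (7 genes, 7 lower in Asrij high) ran from 91.8 to 610 CPM in Asrij low and from 11.7 to 21.7 CPM in Asrij high. Macrophage markers (7 genes, 6 lower) ran from 67.1 to 219 against 32.0 to 40.9 CPM, and B and plasma cell markers (9 genes, 7 lower) from 78.4 to 218 against 16.7 to 25.2 CPM. Endothelial markers (5 genes, 3 lower) ran from 121 to 189 against 21.5 to 61.6 CPM. T and NK cell markers (8 genes, 4 tested, 2 lower) stayed at 4.71 to 8.38 against 0.478 to 2.87 CPM. Granulocyte and monocyte markers (11 genes, 5 higher and 1 lower) ran from 850 to 3493 against 4317 to 7255 CPM. Erythroid markers (10 genes, 6 higher and 3 lower) ran from 5595 to 39557 against 3409 to 5604 CPM, and megakaryocyte markers (7 genes, 0 past the threshold) from 466 to 726 against 311 to 1018 CPM. No marker gene lacked counts throughout a population. The stromal, macrophage, B and plasma cell, erythroid, endothelial and T and NK cell sums were highest of all libraries in Asrij low replicate 3. Without that library Cish was at -2.42, Socs3 at -2.81, Socs2 at -2.06, Socs5 at -1.21, Pim1 at -1.66 and Pim2 at -1.72, all 6 past the threshold, whereas Socs1 was not (-1.52, adjusted p = 0.12). The other 2 Asrij low libraries still held stromal sums of 91.8 and 176 CPM. The part of other cells in these differences was not tested.

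Elsewhere in the pathway most genes that changed were lower in Asrij high. Lists of related genes held 118 genes other than the members, of which 106 were tested, and 55 were lower and 16 higher, with a median log2 fold change of -0.83. These and the list counts that follow stand beside 17.7% lower and 21.7% higher among all genes tested. Under library totals the counts were 63 lower and 9 higher. Parts of elongin-cullin ubiquitin ligases went against this direction. Of 6 tested, 5 were higher and 0 lower (median 0.90), 2 were called higher under library totals or without Asrij high replicate 1, and 3 under upper quartile factors or when Asrij low replicate 1, Asrij low replicate 3 or Asrij high replicate 3 was left out. Eloc, which encodes elongin C, went from 16.5 ± 0.368 CPM in Asrij low to 46.0 ± 9.66 in Asrij high (log2 1.48, adjusted p = 0.00104). Elob, for elongin B, rose by 1.30 (adjusted p = 0.00140) and the cullin gene Cul2 by 0.98 (adjusted p = 0.0128). Eloc and Elob passed the threshold in all 16 alternatives, and Cul2 lost its call without Asrij high replicate 1 (0.87, adjusted p = 0.0514) and under library totals. In both of these settings Eloc and Elob were the only parts called, so Cul5 and Rnf7 lost their calls too.

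Among the kinases that start the pathway, Jak3, the partner of the common gamma chain receptor, was the one that changed. It had 225, 168 and 201 CPM in Asrij low, against 35.5, 86.2 and 37.4 in Asrij high (log2 -1.90 ± 0.33 SE, adjusted p = 0.00232). Jak1 (log2 -0.14), Jak2 (0.14) and Tyk2 (-0.16) did not pass the test, although Jak1 did under upper quartile factors (-0.41, adjusted p = 0.0407). Among the STAT genes, Stat3 went from 225 ± 19.5 CPM in Asrij low to 81.2 ± 23.6 in Asrij high (log2 -1.47, adjusted p = 0.00117), and Stat4 fell by 1.70 (adjusted p = 0.00766). Stat6 (-0.40, adjusted p = 0.0472) lost its call without any 1 of the 6 libraries, at values from -0.36 to -0.46 and adjusted p from 0.0552 to 0.135. Stat5a and Stat5b, which encode the STATs most tied to Cish, Socs2 and Pim1, did not pass the test (-0.05 ± 0.22 and -0.15 ± 0.15 SE, adjusted p = 0.864 and 0.475). Stat5b did pass under upper quartile factors (-0.42, adjusted p = 0.0332).

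**Figure D4:**
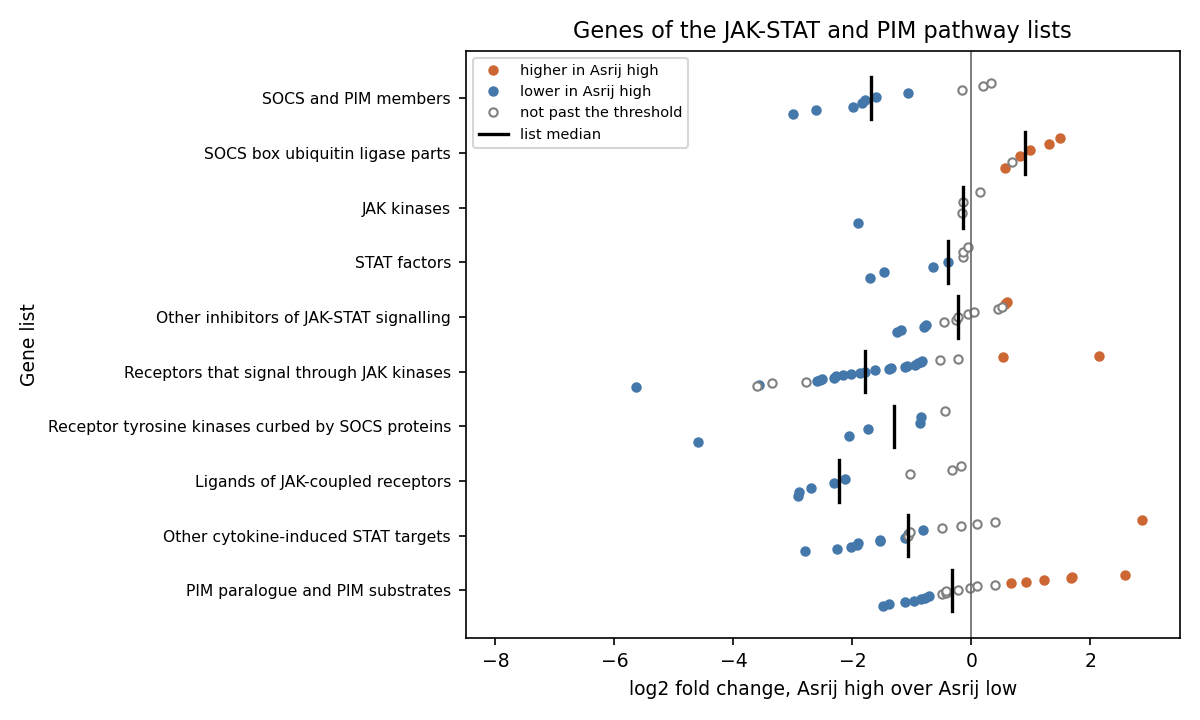
Log2 fold change of every tested gene by list, Asrij high over Asrij low. Each point is a gene, coloured where its adjusted p was under 0.05 (orange higher, blue lower), and black bars are list medians. The 10 SOCS and PIM genes have a median of -1.69 and the SOCS box ligase parts one of 0.90.

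Of 27 tested receptors that signal through JAK kinases, 20 were lower and 2 higher (median -1.78), and 13 were lower without Asrij low replicate 1 or without Asrij high replicate 1 or 3. The interleukin 4 receptor gene Il4ra fell from 67.3 ± 5.55 to 18.3 ± 5.10 CPM (log2 -1.88, adjusted p = 5.38e-04) and Csf2rb2, a beta chain for interleukin 3, by 2.59 (adjusted p = 0.00108). Epor, the erythropoietin receptor gene, rose from 34.4 ± 2.08 to 153 ± 28.5 CPM (log2 2.15, adjusted p = 1.98e-04). Il2ra had 0.370, 0.277 and 2.93 CPM in Asrij low, against 0, 0.0628 and 0 in Asrij high, so its fitted value rests on few counts. It failed the threshold without Asrij low replicate 3 (-3.83, adjusted p = 0.11), Asrij high replicate 1 (-5.23, 0.0732) or Asrij high replicate 3 (-5.18, 0.0719). Among receptor tyrosine kinases curbed by SOCS proteins, 5 of 6 were lower and 0 higher, and 3 were lower without Asrij low replicate 3 or when replicate 3 of Asrij high was left out. Kit fell by 0.85 (adjusted p = 0.00963) and Igf1r by 0.87 (adjusted p = 0.00758). Egfr stood at 6.33 CPM in Asrij low replicate 3 and between 0.481 and 0.554 CPM in the other Asrij low libraries. Its call was lost without replicate 3 (-2.39, adjusted p = 0.101).

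Ligand genes were thinly counted, with 8 of 18 tested, of which 5 were lower and 0 higher. Clcf1, a ligand of the gp130 family, fell from 13.1 ± 1.77 to 2.01 ± 1.27 CPM (log2 -2.70, adjusted p = 0.00204), and Il15 fell by 2.13 (adjusted p = 0.00183). Il4 (-2.90, adjusted p = 0.0174) lost its call without Asrij low replicate 1 (-2.66, adjusted p = 0.0556) or Asrij high replicate 1 (-2.66, adjusted p = 0.075). Lif (-2.92, adjusted p = 0.0424) lost its call without any 1 of the 6 libraries, with adjusted p from 0.0554 to 0.161. Both genes were near or below 2 CPM throughout. The ligand calls numbered 2 without Asrij high replicate 1 and 3 when either Asrij low replicate 1 or replicate 3 of Asrij high was left out.

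Other cytokine-induced STAT targets were mostly lower too, 10 of 17 against 1 higher (median -1.07). Irf1, an interferon-induced transcription factor gene, had 91.4, 86.2 and 92.6 CPM in Asrij low, against 29.8, 35.0 and 28.5 in Asrij high (log2 -1.54, adjusted p = 3.09e-04). The interferon-induced gene Ifit1 fell by 2.80 (adjusted p = 0.00180). The exception was Tfrc, the transferrin receptor gene, which is also an erythroid marker and rose by 2.86 (adjusted p = 0.00109). Other inhibitors of the pathway were split, with 4 lower and 2 higher among 13, a called share near that of all genes tested (39.4%). With Asrij low replicate 1 removed 1 was lower and 1 higher, and removal of replicate 1 or 3 of Asrij high left 3 lower and 0 higher. Ptprc, the gene of the CD45 phosphatase, fell by 1.24 (adjusted p = 0.00108). Usp18 (-1.18, adjusted p = 0.0123) and Cblb (-0.79, adjusted p = 0.0119) fell as well, and both calls were lost without Asrij low replicate 1 (-0.93 and -0.65, adjusted p = 0.0623 and 0.0593). Ptpn2 (0.59, adjusted p = 0.0482) kept its call in 5 of 16 alternatives, and without any 1 library other than Asrij low replicate 2 its adjusted p was 0.0619 to 0.132.

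Transcripts of PIM substrates changed in both directions: 7 of the 20 genes in that list, which includes Pim3, were lower and 6 higher. Phosphorylation of the substrates by PIM kinases was not measured. Cdc25a and Cdc25c, phosphatase genes of the cell cycle, rose by 1.68 and 2.59 (adjusted p = 5.15e-04 and 0.00119). The translation repressor gene Eif4ebp1 rose from 21.9 ± 4.92 to 70.7 ± 10.8 CPM (log2 1.69, adjusted p = 6.77e-04). Nfatc1 fell from 81.8 ± 0.228 to 29.1 ± 14.5 CPM (log2 -1.49, adjusted p = 0.00461).

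Likeness of pattern was measured as the root mean square difference of log2 CPM over the 6 libraries after centring each gene, among the 106 tested genes of these lists. It is a description over 6 libraries that fall into 2 groups. The ligand gene Clcf1 was nearest to both Cish (0.19) and Socs3 (0.21), where the median distance of the 106 genes was 1.10 and 1.23. Cish and Socs3 were each other's nearest member (0.18). Irf1 was nearest to Pim1 (0.13, median 0.70), Il4ra to Pim2 (0.17, median 0.75), the interferon-induced gene Gbp2 to Socs2 (0.19, median 0.94) and the gp130 gene Il6st to Socs1 (0.28, median 1.02). The cell cycle inhibitor gene Cdkn1a was nearest to Socs5 (0.16, median 0.66). Jak2 was nearest to Socs4 and Socs7 (0.11 each, medians 0.77 and 0.69) and Jak1 to Socs6 (0.09, median 0.61). The measure includes the difference between the populations, so genes with like fold changes lie near each other by construction.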

How the data were processed

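Read counts per gene symbol, as deposited by the authors and not normalized, were used for 6 libraries, 3 per population. Columns were matched to samples by library name. The submitters' processing notes name mm10 with HISAT2, Subread, SAMtools and FastQC, whose versions, annotation, strand and multi-mapping options were not given in the sources used here. Per the labels' protocols, ribosomal RNA was depleted and a stranded kit was used, whereas the molecule field names polyA RNA.

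In R 4.3.3, edgeR 4.0.16 (TMM, filterByExpr with minimum count 10 and minimum total 15, robust quasi-likelihood test, group as the only term) was fitted on all genes, with Benjamini-Hochberg adjustment over the 21445 tested and a threshold of 0.05. SEs were derived from the quasi-likelihood statistic. Log2 CPM used a prior count of 2. Alternatives were other scalings and filters, DESeq2 1.42.0, limma-voom 3.58.1, no robust shrinkage, a replicate block and libraries left out. The pipeline was tested on simulated counts. All 196 list symbols were found. The members, lists and tests were chosen with earlier results of these data known. Named pathway genes were all JAK and STAT genes, the 3 smallest p-values and largest rise and fall per list among called genes, and each member's nearest gene. Cul5, Rnf7 and Rbx1 were named in addition. Some genes of these lists are not reported here by name. Coordinates are RefSeq GRCm38.p6. Library pairs within a group differed by more than sampling noise (chi-square over its degrees of freedom, 75.3 to 168).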

Additional observations from a re-analysis of the deposited data

How the results depend on the processing

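Of the 10 members, 6 or 7 were lower and 0 higher in 15 of the 16 alternatives, and 5 were lower without Asrij low replicate 2. With 1 library left out, the members changed numbered 5 to 7, the pathway genes 49 to 69 and all genes 5481 to 8935. The largest loss, without Asrij high replicate 1, came with fewer samples, and its cause was not tested further. Signs turned for genes that passed no test. These were Socs7 (-0.061) and Jak2 (-0.13) under library totals, the same genes under upper quartile factors (-0.068 and -0.13), and Stat5a without a count filter (0.021). Without Asrij low replicate 1 they were Tyk2 (0.0081) and Stat5a (0.14), and without replicate 2 Socs6 (0.043) and Stat5a (0.05). Over the fits with 1 library left out, the other ends of their ranges were -0.25 for Socs6, -0.31 for Tyk2 and -0.28 for Stat5a. Socs1 was also not past the threshold without robust shrinkage (adjusted p = 0.0519) or after removal of both Asrij low replicate 3 and Asrij high replicate 2 (0.0569). With the replicate number as a block, 7 members, 66 pathway genes and 8088 genes of all changed. Same-numbered libraries deviated together with correlations of 0.01, 0.05 and 0.23, not every library correlated best with its own number, and the labels state no pairing, so they share only a number. Socs1 and Socs2 had the fewest counts of the members, 20 to 150 and 35 to 348 per library.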
